A study of Mus musculus with 24 samples.

Results

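BURP-24BaSq and BURP-16SR are the lines of the BBN-induced Urothelium Roswell Park (BURP) collection that the study treated with cisplatin, and according to the study BURP-16SR responded to the drug and BURP-24BaSq did not. Their RNA was compared here over all genes, in the 3 tumors that the sample labels give to BURP-24BaSq (C81-M1, C81-M30 and P2) and the 3 they give to BURP-16SR (C73-M10, C74-MNT and P5), which are 6 of the 24 tumors of the series. Each line goes back to 1 donor tumor, induced in a C57BL/6NTac mouse that drank 0.1% N-butyl-N-(4-hydroxybutyl)-nitrosamine (BBN), a bladder carcinogen, from 8 weeks of age for at most 36 weeks, and was kept by subcutaneous passage in hosts of the donor's strain and sex, which have an intact immune system. BURP-24BaSq came from a female mouse and has a basal/squamous (Ba/Sq) subtype. BURP-16SR came from a male mouse and has a stroma-rich (SR) subtype and a sarcomatoid form, in which carcinoma cells look like spindle cells. By the study's classifier, 1 of its 3 replicates matched the neuroendocrine-like subtype instead, and the study's text does not name which. The labels name no engineered allele in either line. They do not say whether a sequenced tumor came from a mouse given cisplatin, so the values describe the lines beside their reported response. Line, sex, subtype and drug response cannot be told apart in these 6 tumors, and p-values measure the spread between tumors of 1 line, not between independent tumors of a kind.

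Cisplatin enters cells in part through the copper transporter encoded by Slc31a1, is bound by metallothioneins and glutathione, and forms crosslinks between guanines of DNA. Nucleotide excision repair removes crosslinks within a strand, while crosslinks between strands need the Fanconi anemia proteins and homologous recombination. Damage that remains is sensed by checkpoint kinases and p53, which slow the cell cycle or start apoptosis. Carcinoma cells that lose the cadherin junctions and keratins of an epithelium and take up a mesenchymal program, with transcription factors of the Zeb, Snail and Twist families, are a feature of sarcomatoid bladder cancer.

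The estimated counts per tumor summed to between 14039094 and 22243856. Levels are CPM values, that is counts scaled to a common library size with trimmed mean of M-values (TMM) factors, which are not divided by gene length and are compared only between tumors for 1 gene, and 3 counts in a library correspond to between 0.121 and 0.262 CPM. Log2 fold changes are BURP-24BaSq minus BURP-16SR, with their standard error (SE), and come with Benjamini-Hochberg adjusted p-values from edgeR's quasi-likelihood test over all genes tested. A gene is called where the adjusted p is under 0.05 and the change is more than 2-fold. Where a gene had no count in a line, the fold is a lower bound from 3 counts per library, and where a line held 1 to 3 counts in all, levels are given without a fold. Values of the tumors are given in the order C81-M1, C81-M30 and P2 of BURP-24BaSq, then C73-M10, C74-MNT and P5 of BURP-16SR.

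Of 18283 genes tested, 5302 (29.0%) were called, 2413 higher (13.2%) and 2889 lower (15.8%) in BURP-24BaSq, and the median log2 fold change of all genes was -0.05. The 3 tumors of 1 line lay wholly above or below those of the other for 9846 genes (53.9%), among them 5252 of the called ones. P5 stood apart from the other BURP-16SR tumors: its log2 CPM correlated with theirs across genes at 0.900 and 0.927, against 0.963 between C73-M10 and C74-MNT, and between 0.973 and 0.983 among the BURP-24BaSq tumors. The names P5 and P2 have the form of the study's passage numbers, while the other tumors are named by cage and mouse, without a passage. Whether the difference of P5 goes with passage was not tested. Without P5, 6578 of 19467 genes were called (33.8%), 3016 higher and 3562 lower. The transcripts of mesenchymal and immune cells that were low in P5 are given with the results below. The nuclear RNA Gm26917 took between 9.50% and 15.8% of the counts in BURP-16SR and between 6.09% and 8.36% in BURP-24BaSq, and leaving it and ribosomal RNA genes out gave 2550 higher and 2804 lower calls. Xist, the RNA of the inactive X chromosome, was at 1965, 3262 and 2531 CPM in BURP-24BaSq and at 0.523, 0.554 and 1.69 in BURP-16SR, and the Y-linked Ddx3y was listed at 0 in BURP-24BaSq and at 14.1, 18.4 and 4.06 in BURP-16SR, so that each tumor matched the sex of its line.

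The genes that hold epithelial cells together were almost all higher in BURP-24BaSq. Of 28 tested genes of epithelial adhesion and polarity, 27 were called higher and none lower, with a median log2 fold change of 5.92, or 5.85 with the genes at 0 set to their bounds. The start regions of Epcam, Rab25 and Lsr are shown since all 3 genes were in this group and their upstream sequence holds, more than once, the letters CAGGTG or their reverse complement CACCTG. This pattern is an E-box, the kind of site that repressors of the Zeb and Snail families are known to read. Capitals mark it in the 250 bases before the RefSeq start on GRCm38.p6, written 5′ to 3′ on the gene's strand, for Epcam at chr17:87635729-87635978 (plus strand), Rab25 at chr3:88548280-88548529 (minus strand) and Lsr at chr7:30973470-30973719 (minus strand).
Epcam: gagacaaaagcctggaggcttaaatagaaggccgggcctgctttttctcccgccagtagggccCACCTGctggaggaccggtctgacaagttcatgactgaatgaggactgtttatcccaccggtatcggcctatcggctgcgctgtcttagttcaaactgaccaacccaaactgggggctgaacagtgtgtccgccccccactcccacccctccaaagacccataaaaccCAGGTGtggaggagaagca
Rab25: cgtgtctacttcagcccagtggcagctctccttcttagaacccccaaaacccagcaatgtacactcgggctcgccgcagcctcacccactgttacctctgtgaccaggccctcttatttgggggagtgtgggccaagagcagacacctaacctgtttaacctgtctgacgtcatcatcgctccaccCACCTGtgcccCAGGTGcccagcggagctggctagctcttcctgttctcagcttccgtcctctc
Lsr: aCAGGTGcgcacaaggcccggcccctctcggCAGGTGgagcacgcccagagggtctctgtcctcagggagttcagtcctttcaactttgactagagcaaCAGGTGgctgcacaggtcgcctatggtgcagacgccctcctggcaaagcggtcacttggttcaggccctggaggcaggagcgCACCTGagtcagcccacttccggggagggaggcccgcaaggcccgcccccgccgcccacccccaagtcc
The matches began 187 and 19 bases before the start of Epcam, 64 and 53 bases before that of Rab25, and 249, 219, 151 and 69 bases before that of Lsr.

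Over both strands, 5657 of 32851 RefSeq promoters of this length (17.2%) held the E-box letters at least once and 678 (2.06%) at least 2 times. Among the adhesion genes, 17 had a promoter in the table, with 23 starts, of which 13 (56.5%) held the letters and 9 (39.1%) held them at least 2 times. Of 14 promoters of 12 genes of basal and squamous epithelium, 5 (35.7%) held them, and of 15 promoters of 11 mesenchymal genes, 1 did (6.67%). A match is a run of letters and no measurement of binding. Starts of 1 gene were counted separately, the lists were chosen with earlier results of these data known, and the shares were not tested.

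Epcam (chr17:87635979-87651129), an adhesion molecule of epithelia, was at 184, 180 and 160 CPM in BURP-24BaSq and at 0.61, 0.237 and 0.271 in BURP-16SR (log2 fold change 8.88, SE 0.34, edgeR adjusted p = 3.08e-05). Cdh1 (chr8:106603351-106670246), which encodes E-cadherin, was at 650, 542 and 676 CPM against 5.49, 6.72 and 3.93, a 116-fold difference (log2 6.86, SE 0.29, adjusted p = 3.61e-05). Lsr, a protein of tricellular junctions, was at 70.5, 47.7 and 57.5 CPM against 2.62, 3.01 and 1.22 (log2 4.69, SE 0.37, adjusted p = 0.000234). For all 3 genes every BURP-24BaSq tumor lay above every BURP-16SR tumor, by a wide gap. Rab25, a small GTPase of apical recycling, was at 80.1, 112 and 108 CPM against 0.174, 0.237 and 0.339 (log2 8.57, SE 0.30, adjusted p = 2.49e-05).

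The factors that keep up the epithelial state followed the same split. Esrp1, a splicing factor of epithelial cells, was at 252, 205 and 297 CPM in BURP-24BaSq and held 1 count in BURP-16SR (adjusted p = 3.42e-05). Its paralog Esrp2 was at 118, 101 and 120 CPM against 2.53, 3.01 and 2.3 (log2 5.43, SE 0.19, adjusted p = 2.49e-05). Grhl3, a grainyhead factor of barrier epithelia, was at 120, 107 and 156 CPM and listed at 0 in BURP-16SR, at least 545.5-fold higher. The tumors of the lines did not overlap for these 3 genes. Myo5b, a motor of apical transport, was the 1 adhesion gene not called, at 47.4, 52.6 and 26.4 CPM against 16.6, 6.01 and 0.203 (log2 2.48, adjusted p = 0.11). Its BURP-16SR values spread widely, and without P5, the lowest, it was called (log2 1.97, adjusted p = 0.017).

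Keratins of basal cells, desmosomes and the squamous program were among the largest differences of all. Of 29 genes of basal and squamous epithelium, 25 were called higher and 1 lower (median 7.17), and of 36 tested genes of the cornified envelope, the protein shell of squamous cells, 29 were higher and 1 lower (median 7.05). Krt17, a keratin of basal and stressed epithelium, was at 957, 676 and 1270 CPM and listed at 0 in all BURP-16SR tumors, at least 4136-fold higher. Dsg3, a desmosomal cadherin, was at 769, 725 and 491 CPM against 0 in BURP-16SR, at least 2829-fold higher. Sprr3, a cornified envelope protein, was at 481, 806 and 399 CPM against 0 in BURP-16SR, at least 2402-fold higher. Counts of these genes were thus abundant in every BURP-24BaSq tumor and not detected in BURP-16SR. Dsc2 (at least 3052-fold), the protease inhibitor gene Spink5 (at least 2073-fold) and the amino acid transporter gene Slc6a14 (at least 1209-fold) were likewise listed at 0 in BURP-16SR. Krt5 was at 4704, 3559 and 5907 CPM in BURP-24BaSq with 4 counts in BURP-16SR, Krt14 at 5373, 3249 and 3926 CPM with 3 counts and Krt6a at 8959, 7171 and 9223 CPM with 7 counts, where reads of the near-identical Krt6b are divided between the copies by estimation. Psca, a surface antigen of stratified epithelia, was at 936, 1434 and 1117 CPM with 1 count in BURP-16SR. The 1 gene of the basal list called lower was Cd44, a hyaluronan receptor that mesenchymal cells also carry (log2 -1.27), which missed the fold threshold at -0.99 without P5.

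Genes of the luminal urothelium went both ways, with 9 of 19 tested called higher and 8 lower (median 2.10), or 5 lower without C73-M10 or C81-M1. The uroplakin genes Upk1a, Upk1b, Upk2, Upk3a and Upk3b, which define umbrella cells, had too few counts in both lines to be tested. The simple keratin Krt18 was at 31.9, 33.7 and 12.3 CPM in BURP-24BaSq and at 245, 132 and 310 in BURP-16SR (log2 -3.14, SE 0.49, adjusted p = 0.00312). Its partner Krt8 was at 5.77, 20.8 and 3.47 CPM against 132, 77.7 and 158 (log2 -3.62, SE 0.71, adjusted p = 0.0079). Krt8 and Krt18 thus ran opposite to the keratins of basal cells, with every BURP-16SR tumor above every BURP-24BaSq tumor. This did not hold for Krt7 of the same list, which was not called. Its counts totalled 11896 in BURP-24BaSq and 1768 in BURP-16SR (log2 1.99 without P5, adjusted p = 0.24). Among the higher genes were Elf3, an epithelial factor (log2 10.02, SE 0.32, adjusted p = 2.49e-05), the tight junction gene Cldn3, at least 228.3-fold higher, and Cldn4, at 449, 278 and 419 CPM against 25.6, 10.1 and 36.7 (log2 3.98, SE 0.50, adjusted p = 0.00136).

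The mesenchymal genes were the counterpart. Of 20 transcription factors and markers of epithelial-mesenchymal transition, 14 were called lower and 1 higher in BURP-24BaSq, with a median log2 fold change of -2.11. Zeb1, a repressor of epithelial genes, was at 7.68, 9.62 and 6.33 CPM in BURP-24BaSq and at 88.8, 112 and 107 in BURP-16SR (log2 -3.70, SE 0.22, adjusted p = 8.2e-05). Zeb2 was at 49.3, 44.7 and 55.2 CPM against 161, 207 and 120 (log2 -1.71, SE 0.23, adjusted p = 0.00177). Cdh2, which encodes N-cadherin, was at 0.392, 0.973 and 0.646 CPM against 35.7, 56.4 and 41.8 (log2 -6.05, SE 0.39, adjusted p = 0.00011). Every BURP-16SR tumor, P5 included, was above every BURP-24BaSq tumor for these genes. The same held for Vim, the intermediate filament vimentin, at 52.8, 80.9 and 78.7 CPM against 1614, 1494 and 1398 (21.2-fold lower, log2 -4.41, SE 0.25, adjusted p = 7.6e-05), and for Fn1, which encodes fibronectin, at 328, 363 and 358 CPM against 3068, 4241 and 3249 (log2 -3.33, SE 0.24, adjusted p = 0.000152). The gene called higher was Snai2, a Snail family repressor also active in basal keratinocytes, at 33.1, 35.4 and 41.6 CPM against 3.84, 5.93 and 5.01 (log2 2.89, SE 0.22, adjusted p = 0.000213), while Snai1 (log2 -3.34) and Twist1 (log2 -2.42) were lower.

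**Figure D1:**
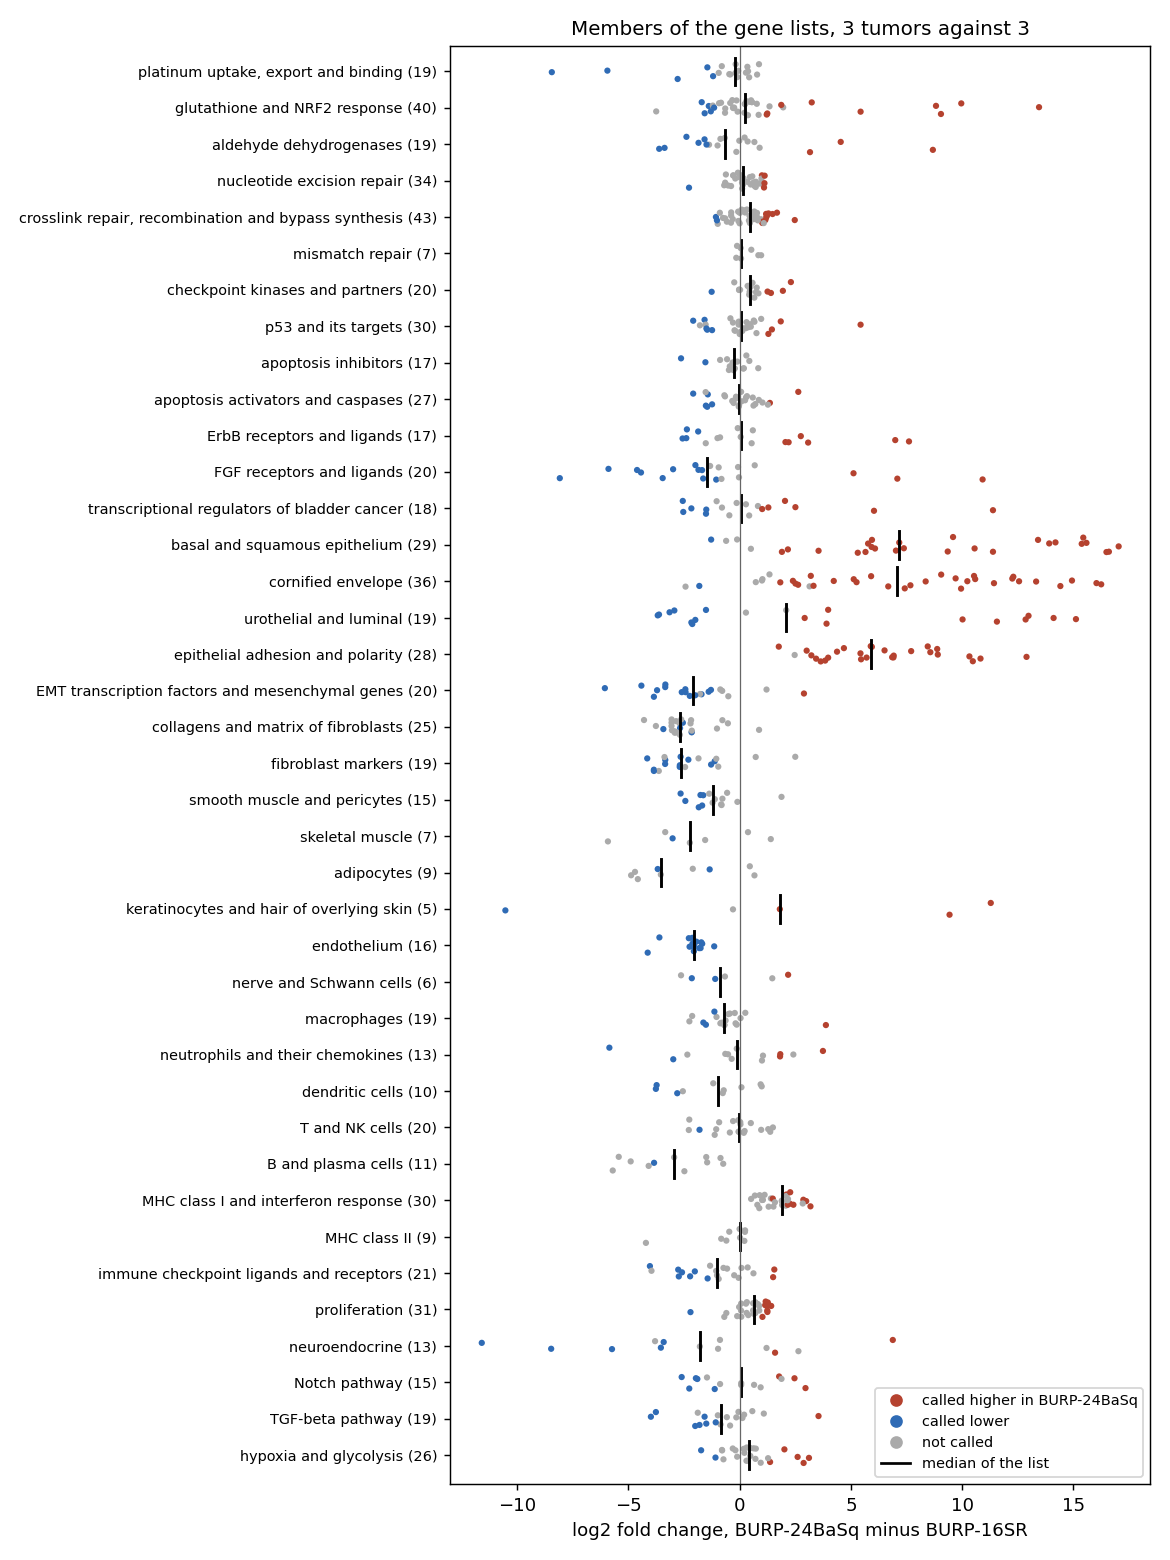
Log2 fold change of each tested gene, BURP-24BaSq minus BURP-16SR, by gene list, with the number tested in parentheses. Each point is 1 gene, red where called higher, blue where called lower and grey where not called, and a black bar marks the median of a list, while genes with no count in 1 line are drawn at fitted values that depend on the prior count. Epithelial adhesion (median 5.92), basal (7.17) and cornified envelope genes (7.05) lie far to the higher side, the endothelial list (median -2.05) lies wholly on the lower side, and the medians of the repair lists lie between 0.07 and 0.47.

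In the list of platinum handling genes, the calls were all lower in BURP-24BaSq. Of 19 tested genes of platinum uptake, export and binding, 5 were called lower and none higher, with a median of -0.18. The share called, 5 of 19, was close to the 29.0% of all genes. Slc31a1, the copper transporter through which cisplatin can enter, was at 45.8, 47 and 46.3 CPM in BURP-24BaSq and at 32.1, 34.7 and 39.7 in BURP-16SR. The tumors did not overlap, but the difference was small and not called (log2 0.38, SE 0.14, adjusted p = 0.0749).

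The called genes of this group were 3 pumps and 2 metal-binding proteins. Atp7a and Atp7b, also in the list, were not among them (log2 0.04 and 0.84 without P5). Whether the 3 pumps carry cisplatin was not tested. Abcb1a (chr5:8660077-8748575) encodes a P-glycoprotein, an efflux pump of many drugs, and was at 1.37, 1.89 and 1.61 CPM in BURP-24BaSq and at 88.9, 44.9 and 165.4 in BURP-16SR, 61.1-fold lower in the line that did not respond (log2 -5.93, SE 0.55, adjusted p = 0.000422). Its neighbour Abcb1b (chr5:8798147-8866315), the other mouse P-glycoprotein gene, was at 7.68, 11.3 and 9.8 CPM against 55.8, 62.1 and 79.8 (log2 -2.78, SE 0.23, adjusted p = 0.00026). Abcg2, a pump of stem and barrier cells, was at 2.84, 3.48 and 3.83 CPM against 6.8, 10.8 and 10.1 (log2 -1.44, SE 0.28, adjusted p = 0.00787), with an adjusted p of 0.066 in a fit of all 24 tumors. All 3 pumps were higher in every BURP-16SR tumor than in any BURP-24BaSq tumor. Across the lines of the series, the mean level of Abcb1a was 100.4 CPM in BURP-16SR, 19.8 in the neuroendocrine-like BURP-19NE and between 1.598 and 4.085 in the 6 Ba/Sq lines. Abcb1a is also known in the endothelium of some tissues, and endothelial genes were lower in BURP-24BaSq as well (summed 131.7 to 161 CPM against 451.5 to 687.8), whose part in the difference was not tested.

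Metal-binding genes did not move as 1 group. Mt3, a metallothionein best known from brain, held 1 count in BURP-24BaSq and was at 7.41, 3.16 and 12.9 CPM in BURP-16SR (adjusted p = 0.000953). Ccs, the copper chaperone of superoxide dismutase, was at 6.46, 6.6 and 6.05 CPM against 15.1, 15.7 and 12.8 (log2 -1.19, SE 0.19, adjusted p = 0.00392). Mt2, a widespread metallothionein, was at 60.8, 50.2 and 87.2 CPM against 32.9, 36 and 45.8, with no overlap but a change of less than 2-fold (log2 0.79, adjusted p = 0.0428). The pump gene Abcc4 also stayed under the fold threshold (log2 -0.80, adjusted p = 0.0069).

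Glutathione transferases and peroxidases showed some of the widest gaps among the drug-handling genes. Of 40 tested genes of glutathione and the NRF2 response, 9 were called higher and 5 lower (median 0.24), which is 35% against 29.0% of all genes. Gsto1 (chr19:47854970-47864790), an omega-class transferase, was at 2528, 3388 and 2559 CPM in BURP-24BaSq and at 70.3, 58.2 and 66.9 in BURP-16SR, 43.4-fold higher (log2 5.44, SE 0.26, adjusted p = 5e-05). Gsta4 (chr9:78182774-78209349), an alpha-class transferase that acts on products of lipid peroxidation, was at 324, 334 and 287 CPM against 0.436, 0.158 and 0.339 (log2 9.96, SE 0.32, adjusted p = 2.49e-05). Gpx2 (chr12:76792333-76795554), the glutathione peroxidase of epithelia, was at 70.8, 77.5 and 95.1 CPM and listed at 0 in BURP-16SR, at least 346.7-fold higher. Every BURP-24BaSq tumor was far above every BURP-16SR tumor for each of these genes. Gsta1, which is nearly identical to Gsta2, was at 49.5, 40.2 and 43.4 CPM with 3 counts in BURP-16SR (adjusted p = 5.59e-05), and Txn1, which encodes thioredoxin, was at 218, 151 and 327 CPM against 57.3, 68.1 and 64.5 (log2 1.87, adjusted p = 0.00313).

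Other genes of the group went the opposite way or did not move. Gpx4, the peroxidase that repairs oxidised membrane lipids, was at 28.3, 29.1 and 26.2 CPM in BURP-24BaSq and at 81.3, 75.2 and 90.9 in BURP-16SR (2.96-fold lower, log2 -1.57, SE 0.14, adjusted p = 0.000419). Gclc, a subunit of the enzyme that limits glutathione synthesis, was at 16.6, 16 and 20.9 CPM against 37.2, 34.4 and 59.2 (log2 -1.29, SE 0.25, adjusted p = 0.00798), and without P5 its change of -0.93 was under the fold threshold. Nfe2l2, which encodes the regulator NRF2, had a log2 fold change of -0.09 (adjusted p = 0.658). The list therefore held genes of both directions within 1 pathway, with the tumors of the lines apart for Gpx4 and Gclc. Aldh2, a mitochondrial aldehyde dehydrogenase, was at 22.5, 22.8 and 26.3 CPM against 228, 201 and 445 (log2 -3.61, SE 0.35, adjusted p = 0.000478).

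Few genes of nucleotide excision repair differed, and the largest change was in Ercc1. Of 34 tested genes of this pathway, 4 were called higher and 1 lower (median 0.18), with 2 higher when C81-M30 or P2 was left out. The share called was 14.7%, against 29.0% of all genes. Ercc1 (chr7:19344778-19356524) encodes a part of the nuclease that cuts 5′ of a crosslink, and was at 14.6, 15.7 and 13.6 CPM in BURP-24BaSq and at 64.6, 60 and 86.5 in BURP-16SR, 4.82-fold lower (log2 -2.27, SE 0.19, adjusted p = 0.000301). All BURP-16SR tumors were above all BURP-24BaSq tumors. The gene overlaps Cd3eap on the opposite strand, and whether the counts kept the strands apart is not stated. Over the lines of the series Ercc1 was not low in BURP-24BaSq alone, with means of 15.11 CPM in BURP-24BaSq, 70.32 in BURP-16SR and 77.96 in BURP-18BaSq, and between 9.378 and 20.4 in the remaining 4 Ba/Sq lines.

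Among genes of crosslink repair and recombination, the calls were mostly on the side of BURP-24BaSq. Of 43 tested, 10 were called higher and 2 lower, with a median of 0.47, against 13.2% and 15.8% of all genes. The count of higher calls was 3 without C73-M10, 15 without C74-MNT and 5 or 6 without 1 of the BURP-24BaSq tumors. Brca2 (chr5:150522630-150570329), a mediator of homologous recombination, was at 51.9, 72.7 and 53.8 CPM in BURP-24BaSq and at 7.06, 15.4 and 9.41 in BURP-16SR, 5.58-fold higher (log2 2.48, SE 0.32, adjusted p = 0.00155). Rad54l, a motor protein of recombination, was at 22.8, 25 and 26.3 CPM against 7.5, 12.2 and 6.77 (log2 1.48, SE 0.26, adjusted p = 0.00518). The tumors of the lines did not overlap for either gene. Brca1 had a log2 fold change of 0.42 (adjusted p = 0.248). None of 7 mismatch repair genes was called, with a median of 0.07.

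Many of these genes are made in dividing cells, and most calls among the proliferation genes were in the same direction. Of 31 tested, 8 were called higher and 1 lower (median 0.64), a share close to the 29.0% of all genes. The levels of the list summed to 2323, 2230 and 2368 CPM in BURP-24BaSq and to 1016, 1903 and 1265 in BURP-16SR. The number called higher was 3 without C73-M10, 4 without C81-M1 or P2 and 15 without C74-MNT. The proliferation antigen gene Mki67 was at 635, 603 and 626 CPM against 182, 364 and 240 (log2 1.25, SE 0.27, adjusted p = 0.0113). Top2a, the topoisomerase of dividing cells, was at 275, 261 and 250 CPM against 111, 284 and 120, where C74-MNT reached the level of BURP-24BaSq (log2 0.61, adjusted p = 0.233), and it was called without that tumor (log2 1.19, adjusted p = 0.0035). The cell cycle factor gene E2f1 ran against the group at 9.88, 7.99 and 9.2 CPM against 35.7, 37.4 and 51.5 (log2 -2.20, SE 0.21, adjusted p = 0.000466). How much of the difference in repair genes goes with dividing cells was not tested.

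Checkpoint kinases and their partners gave 4 genes higher and 1 lower of 20 tested (median 0.48). The share called, 25%, was close to the 29.0% of all genes. Chek1, the kinase that answers stalled replication, was at 11.5, 17.9 and 14.6 CPM in BURP-24BaSq and at 4.88, 6.41 and 5.21 in BURP-16SR (log2 1.41, SE 0.25, adjusted p = 0.00532). Cdc25b, a phosphatase that starts mitosis, was at 72.6, 56.7 and 81.5 CPM against 14.9, 16.9 and 10.8 (log2 2.31, SE 0.23, adjusted p = 0.000591). Slfn9, a member of the Schlafen family, was at 178, 183 and 201 CPM against 28.2, 69.5 and 48.3 (log2 1.95, adjusted p = 0.00396). Every BURP-24BaSq tumor was above every BURP-16SR tumor for these 3 genes. Atm, the kinase that answers double-strand breaks, was not called (log2 0.45, adjusted p = 0.206), and Rad9a, a part of the checkpoint clamp, was lower (log2 -1.25, adjusted p = 0.00288).

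The p53 pathway was called about as often as all genes. Trp53 itself was at 77.8, 53 and 79.2 CPM in BURP-24BaSq and at 62, 69.1 and 61.5 in BURP-16SR, with overlapping tumors (log2 0.13, adjusted p = 0.635), and its RNA level says nothing of mutation or protein. Of 30 tested genes of p53 and its targets, 4 were called higher and 5 lower (median 0.07), against 29.0% of all genes. Cdkn1a, the inhibitor p21 that halts the cell cycle, was at 130, 85 and 142 CPM against 54.1, 36.7 and 39.3 (log2 1.46, SE 0.25, adjusted p = 0.00496). Perp, a p53 target that is also a desmosome protein, was at 1013, 848 and 975 CPM against 33, 27.4 and 5.15 (log2 5.44, SE 0.70, adjusted p = 0.00151). Both were higher in all BURP-24BaSq tumors. Mdm2, which degrades p53 and is induced by it, was lower at 48.4, 46.4 and 45 CPM against 101.8, 118 and 196 (log2 -1.57, SE 0.26, adjusted p = 0.00414), as were the proapoptotic targets Bax, at 12.1, 10.2 and 9.72 CPM against 26.6, 22.7 and 26 (log2 -1.23, SE 0.18, adjusted p = 0.00235), and Bbc3, which encodes PUMA, at 2.45, 1.89 and 0.847 CPM against 9.07, 5.22 and 7.65 (log2 -2.08, SE 0.45, adjusted p = 0.0118). For these 3 genes the tumors of the lines did not overlap.

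The shares of genes that carry out apoptosis and of genes that block it that were called lay below the 29.0% of all genes. Of 27 tested activators and caspases, 5 were lower and 2 higher (median -0.02), with 5 higher without C74-MNT, and of 17 tested inhibitors, 2 were lower and none higher (median -0.27). Apaf1, the scaffold of the apoptosome, was at 31.5, 31.9 and 26 CPM in BURP-24BaSq and at 73.6, 92.2 and 78.6 in BURP-16SR (log2 -1.45, SE 0.16, adjusted p = 0.000912). Bcl2l1 (chr2:152780668-152831728), which encodes the survival protein Bcl-xL, was at 30.9, 38.3 and 32.3 CPM against 229, 140 and 258, 6.17-fold lower (log2 -2.63, SE 0.26, adjusted p = 0.00057). Its relative Bcl2l2 was at 32.2, 27.9 and 29.2 CPM against 101, 77.9 and 79.5 (log2 -1.53, SE 0.16, adjusted p = 0.000741). In each case all BURP-16SR tumors were the higher ones. Mcl1, another survival gene, was at 256, 260 and 268 CPM against 254, 186 and 137 (log2 0.44, adjusted p = 0.182).

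**Figure D2:**
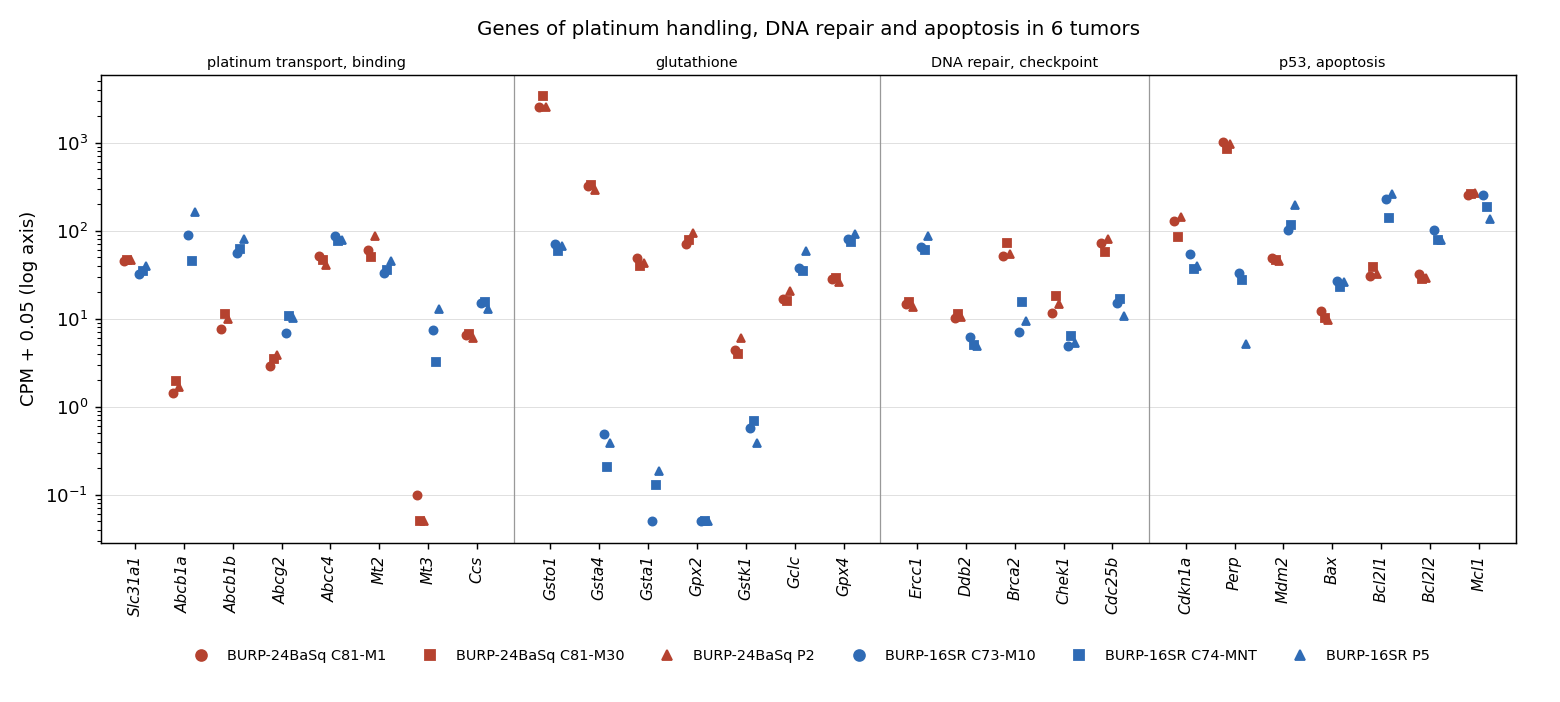
Level of genes of platinum handling, glutathione, DNA repair and p53 with apoptosis in each tumor, as CPM plus 0.05 on a log axis. Red symbols are the BURP-24BaSq tumors and blue symbols the BURP-16SR tumors, with 1 symbol shape per tumor. The pumps Abcb1a and Abcb1b, Ercc1 and Bcl2l1 lie higher in all BURP-16SR tumors, Gsto1, Gsta4 and Brca2 lie higher in all BURP-24BaSq tumors, and Slc31a1 lies close in both.

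Receptors of the ErbB family and their ligands split by member. Of 17 tested, 6 were called higher and 4 lower in BURP-24BaSq (median 0.05), with 2 lower without C73-M10 or C81-M1. Erbb2 (chr11:98412470-98437716), the receptor HER2, was at 93.2, 73.5 and 92.3 CPM in BURP-24BaSq and at 17, 20.6 and 18.6 in BURP-16SR, 4.61-fold higher (log2 2.21, SE 0.17, adjusted p = 0.000204). Erbb3 (chr10:128567523-128589652), its partner that binds neuregulins, was at 180, 157 and 190 CPM against 1.74, 1.9 and 0.542 (log2 6.99, SE 0.45, adjusted p = 0.000115). Grb7, an adaptor of ErbB2, was at 32, 41 and 38.8 CPM against 0.349, 0.237 and 0 (log2 7.61, SE 0.61, adjusted p = 0.000247). The lines were far apart for these 3 genes. Egfr was at 231, 173 and 176 CPM against 99.9, 134 and 163, with every BURP-24BaSq tumor above every BURP-16SR tumor but no call (log2 0.55, SE 0.23, adjusted p = 0.101), and without P5 its change was 0.80 (adjusted p = 0.023), still under 2-fold.

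The ligands of Egfr differed in direction. Tgfa was at 100, 105 and 99 CPM in BURP-24BaSq and at 15.7, 9.97 and 19.4 in BURP-16SR (log2 2.75, SE 0.26, adjusted p = 0.000451), and Epgn, which encodes epigen, was also higher (log2 3.08). Areg, which encodes amphiregulin, was at 20.1, 23.8 and 9.08 CPM against 112, 31.6 and 129 (log2 -2.36, adjusted p = 0.0193). Ereg, which encodes epiregulin, was at 46.1, 69.8 and 22.4 CPM against 296, 85.7 and 432 (log2 -2.56, adjusted p = 0.0216). All BURP-16SR tumors were above the BURP-24BaSq tumors for Areg and Ereg, with C74-MNT the nearest. Their calls were lost without C73-M10, C81-M1 or P2, and for Areg also without C81-M30, with adjusted p up to 0.067 for Areg and 0.082 for Ereg. Feedback inhibitors of ErbB signalling were lower in BURP-24BaSq: Errfi1 was at 62.2, 73.7 and 64.8 CPM against 316, 163 and 249 (log2 -1.86, SE 0.26, adjusted p = 0.00208), and Lrig1 was at 9.54, 15.9 and 11.1 CPM against 60.6, 61 and 70 (log2 -2.39, SE 0.23, adjusted p = 0.000473).

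Among FGF receptors, the epithelial Fgfr2 and Fgfr3 were higher and most ligands lower in BURP-24BaSq. Of 20 tested genes, 11 were called lower and 3 higher, with a median of -1.48. Fgfr3 (chr5:33721674-33737068), a receptor often altered in bladder cancer, was at 70.4, 95.4 and 101 CPM in BURP-24BaSq and at 0.349, 1.19 and 0.406 in BURP-16SR, a 136-fold difference (log2 7.09, SE 0.46, adjusted p = 0.000119). Fgfr2 was at 72.3, 94.5 and 76.9 CPM against 0.349, 6.33 and 0.339 (log2 5.12, SE 1.06, adjusted p = 0.00958). Fgfbp1, a carrier that releases FGF from matrix, was at 145, 177 and 166 CPM with 3 counts in BURP-16SR (adjusted p = 3.08e-05). C74-MNT had the most Fgfr2 of the BURP-16SR tumors and was still far under BURP-24BaSq. Fgfr1, the receptor of mesenchymal cells, was at 30.2, 31.9 and 48.6 CPM against 95, 152.1 and 29.4, and P5 lay just below the BURP-24BaSq tumors (log2 -1.32, SE 0.55, adjusted p = 0.101), while without P5 the gene was called lower (log2 -1.67, adjusted p = 0.0036).

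Most ligands and the feedback genes Spry2 and Spry4 were higher in BURP-16SR. Spry1 and Dusp6, also in the list, were not called, with log2 fold changes of 0.51 and 0.17 without P5. Fgf2, basic FGF, was at 4.26, 5.53 and 5.37 CPM in BURP-24BaSq and at 46.5, 41 and 78.3 in BURP-16SR (log2 -3.45, SE 0.30, adjusted p = 0.000344). Fgf7, a stromal ligand of Fgfr2, was at 1.81, 1.54 and 1.17 CPM against 20.5, 49.5 and 27.1 (log2 -4.42, SE 0.41, adjusted p = 0.000437). Fgf1 was at 0.587, 1.02 and 0.282 CPM against 10.4, 14.3 and 21.1 (log2 -4.60, SE 0.54, adjusted p = 0.00103). In P5, where Fgfr1 was low, the 3 ligands stayed in the range of the other BURP-16SR tumors or above it. Fgf5 was listed at 0 in BURP-24BaSq and was at 4.01, 0.712 and 1.15 CPM in BURP-16SR, at least 13.9-fold lower. Spry4, a Sprouty inhibitor that receptor signalling induces, was at 3.92, 4.3 and 3.03 CPM against 270, 135 and 260 (log2 -5.89, SE 0.36, adjusted p = 9.41e-05), and Spry2 was at 24.4, 19.1 and 18.2 CPM against 168, 133 and 187 (log2 -2.98, SE 0.21, adjusted p = 0.000141). The mean of Spry4 over the lines was 220.9 CPM in BURP-16SR, 73.78 in BURP-19NE and between 3.064 and 17.55 in the Ba/Sq lines.

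Of 18 transcriptional regulators used to describe bladder cancer, 6 were called higher and 5 lower (median 0.08), with 3 higher without C81-M1 or P2. Trp63, the basal factor p63, was at 366, 350 and 383 CPM in BURP-24BaSq and at 0.174, 0.237 and 0 in BURP-16SR (log2 11.38, SE 0.52, adjusted p = 4.79e-05). Rarg, a retinoic acid receptor of squamous epithelium, was at 174, 129 and 189 CPM against 43.1, 35 and 41.1 (log2 2.04, SE 0.20, adjusted p = 0.000475). Rara was lower, at 26, 15.9 and 20.3 CPM against 68.3, 49.2 and 57.6 (log2 -1.49, adjusted p = 0.00306). The retinoid receptors thus differed in opposite directions, each with no overlap. Gata3, a luminal factor, was at 16.5, 12.6 and 20.5 CPM against 47.6, 31.4 and 62 (log2 -1.51, SE 0.30, adjusted p = 0.00852), and Gata6 was at 3.52, 2.82 and 3.63 CPM against 16.1, 19.6 and 21.8 (log2 -2.53, adjusted p = 0.000386). Foxa1, another luminal factor, overlapped between the lines (log2 0.29, adjusted p = 0.409). Pparg, the luminal nuclear receptor, was low in both at 0.489, 2.05 and 0.767 CPM against 5.84, 4.35 and 4.61 (log2 -2.16, adjusted p = 0.0208), a call lost without C73-M10, C81-M1 or P2 (adjusted p up to 0.081). For Gata3 and Trp63 the protein staining of the study ran the other way. It found GATA3 in BURP-24BaSq and none in BURP-16SR. TP63 was negative in BURP-24BaSq and present in some cells of BURP-16SR. Why RNA and protein differ was not tested.

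**Figure D3:**
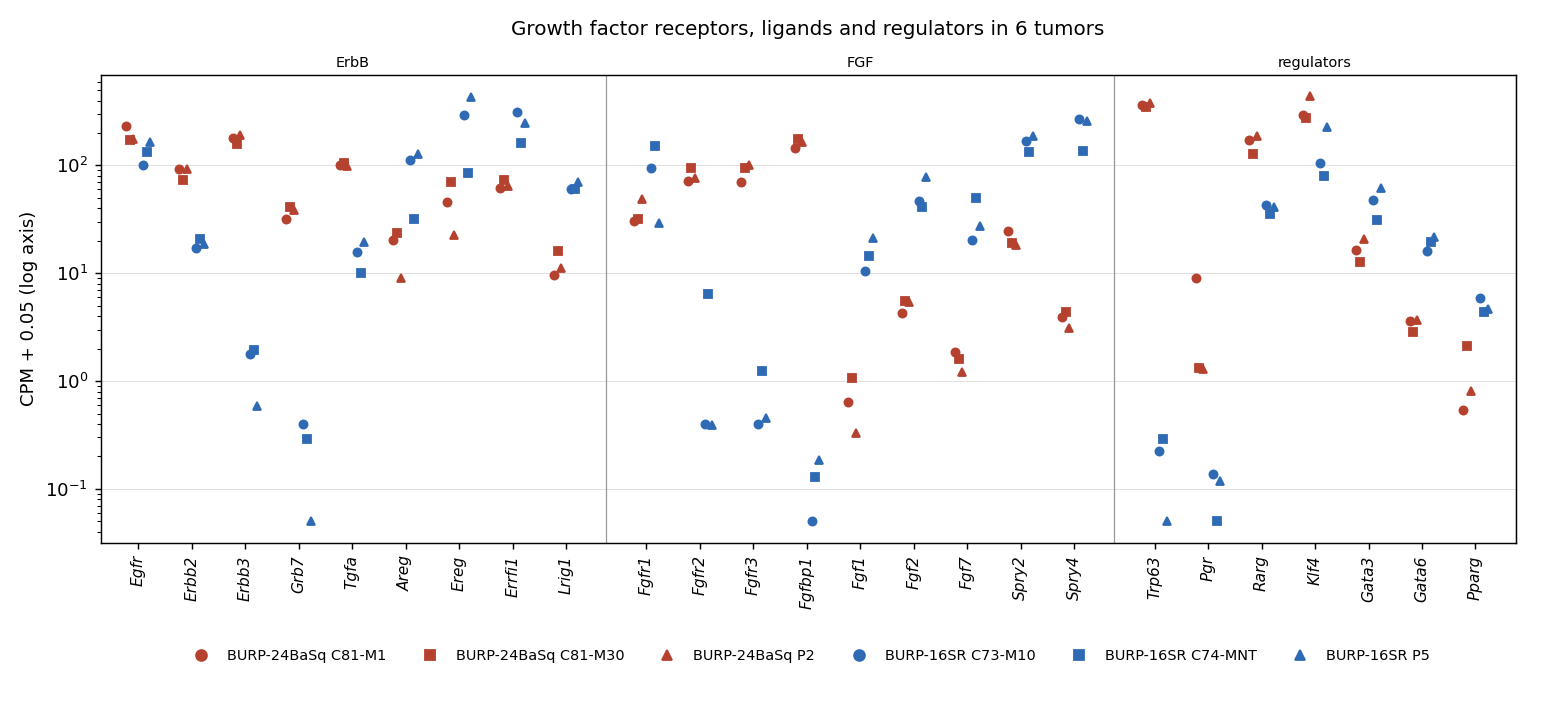
Level of ErbB genes, FGF genes and transcriptional regulators in each tumor, as CPM plus 0.05 on a log axis. Red symbols are BURP-24BaSq tumors and blue symbols BURP-16SR tumors, with 1 shape per tumor, and Erbb3, Fgfr3, Fgfbp1 and Trp63 are high in all red and near the floor in all blue tumors, while Fgf1, Fgf7 and Spry4 show the opposite order and Egfr lies close in both lines.

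Transcripts of stromal cells were lower in BURP-24BaSq, but for fibroblasts this rested on C73-M10 and C74-MNT. In bulk tumor RNA, fewer cells of a type and less RNA per cell cannot be told apart, and sarcomatoid carcinoma cells can make mesenchymal transcripts too. The 25 collagen and matrix genes gave 4 lower calls and none higher (median -2.68), and without P5 they gave 22 lower, while DESeq2 called 15 lower in all 6 tumors, and 1 or 2 were lower without any other tumor. Col1a1, the main collagen of fibroblasts, was at 499, 700 and 548 CPM in BURP-24BaSq and at 3739, 9039 and 323 in BURP-16SR, so P5 was under every BURP-24BaSq tumor (log2 -2.91, SE 1.0, adjusted p = 0.059), and without P5 it was called (log2 -3.38, adjusted p = 0.00084). Col3a1 had the same pattern at 246, 410 and 297 CPM against 1944, 5872 and 94.5 (log2 -3.05, adjusted p = 0.0837, and -3.54, adjusted p = 0.0014, without P5). The list summed to 2282, 3596 and 2855 CPM against 12798, 32836 and 1942. Fibroblast markers gave 11 lower calls of 19 (median -2.65), or 16 of 20 without P5, 7 without C73-M10 and 4 without any 1 of the BURP-24BaSq tumors, and summed to 613.4, 548.5 and 653.8 CPM against 1631, 2288 and 642. Fbln2, a matrix protein that stayed high in P5, was at 45.8, 62.8 and 49.2 CPM against 524, 774 and 392 (log2 -3.42, SE 0.30, adjusted p = 0.000367).

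The endothelial genes were lower in BURP-24BaSq: all 16 were called, with a median log2 fold change of -2.05, and all 16 were also called without P5 and by DESeq2. Leaving out another tumor kept between 12 and 15 of the calls, with those of Tek, Kdr, Egfl7 and Eng among the lost. Pecam1, an adhesion molecule of vessels, was at 14.3, 16.3 and 21.1 CPM in BURP-24BaSq and at 71.2, 86.8 and 58.5 in BURP-16SR, 4.18-fold lower (log2 -2.06, SE 0.23, adjusted p = 0.000805). Vwf, which encodes von Willebrand factor, was at 26.5, 27.8 and 23.1 CPM against 81.3, 96.3 and 157 (log2 -2.11, SE 0.27, adjusted p = 0.00149). Prox1, a factor of lymphatic vessels, was at 0.636, 0.358 and 1.25 CPM against 9.5, 9.34 and 21.1 (log2 -4.12, SE 0.58, adjusted p = 0.00219). P5 was thus as rich in endothelial RNA as the other BURP-16SR tumors, and the tumors of the lines did not overlap for these genes. Of 15 smooth muscle and pericyte genes, 6 were lower and none higher (median -1.21), with 9 lower without P5, 2 without C81-M1 or C81-M30, 3 without P2 and 4 without C74-MNT, where 1 was higher. Adipocyte genes summed to 133.5, 112.5 and 143 CPM against 937.5, 187.4 and 366.9, with 2 of 9 called lower, or 8 without P5. Skeletal muscle genes summed to 264.6 CPM in C74-MNT and to between 11.36 and 43.06 in the other 5 tumors, and 1 of 7 was called lower, or 3 without C73-M10 and 2 without P5, while 2 were higher without C74-MNT. Markers of keratinocytes and hair of overlying skin summed to between 220.5 and 295 CPM in BURP-24BaSq and between 41.3 and 68.06 in BURP-16SR, with 3 of 5 higher and 1 lower, and the part of skin in the squamous genes above was not tested. Nerve and Schwann cell genes overlapped in sum, at 71.01 to 98.44 CPM against 48.83 to 87.1, with 1 of 6 higher and 2 lower.

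Most immune cell lists gave few calls, and P5 had the lowest sum of the 6 tumors for the macrophage, dendritic cell, T cell and MHC class II lists. Of 19 macrophage genes, 1 was called higher and 3 lower (median -0.68), and without P5 7 were lower. Csf1r, the receptor that macrophages need, was at 35.5, 29.1 and 48.3 CPM in BURP-24BaSq and at 114, 97.7 and 19.9 in BURP-16SR (log2 -1.03, adjusted p = 0.206, and -1.41, adjusted p = 0.0033, without P5). Mrc1, the mannose receptor of alternatively activated macrophages, was at 19.5, 19.6 and 17.4 CPM against 144, 118 and 7.92 (log2 -2.25, adjusted p = 0.0828, and -2.72, adjusted p = 6.9e-05, without P5). P5 was under all BURP-24BaSq tumors for both genes, C73-M10 and C74-MNT above them.

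Arg1 was the macrophage gene called higher, and it was abundant. Arg1 (chr10:24915221-24927484) encodes arginase 1, which breaks down arginine and is made by suppressive macrophages and by some epithelia, and was at 1939, 1911 and 1179 CPM in BURP-24BaSq and at 168, 94.3 and 80 in BURP-16SR, 14.7-fold higher (log2 3.88, SE 0.39, adjusted p = 0.000564). Every BURP-24BaSq tumor was above every BURP-16SR tumor, and Arg1 made up most of the sum of the macrophage list in BURP-24BaSq (2451, 2440 and 2070 CPM, against 1862, 1296 and 377.5). Which cells made it was not tested. Il1a, an alarm cytokine of squamous epithelium, was at 38.8, 42.8 and 37.2 CPM against 4.18, 3.08 and 1.62 (log2 3.75, SE 0.35, adjusted p = 0.000431). Csf2, which encodes the growth factor GM-CSF, was at 0.196, 0.102 and 0.161 CPM against 14.7, 3.64 and 9.41 (log2 -5.84, SE 0.66, adjusted p = 0.00091). These signals of inflammation thus differed in both directions, and each of the 3 genes separated all tumors of the lines.

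T and NK cell genes gave 1 lower call of 20 (median -0.03), 5 without P5 and none without any other tumor, and summed to 49.76, 25.7 and 70.04 CPM in BURP-24BaSq and to 78.89, 108.9 and 5.621 in BURP-16SR. Cd8a, the mark of cytotoxic T cells, was at 5.87, 2.82 and 10.8 CPM against 1.92, 6.01 and 0.0677, with overlapping tumors and no call. The B and plasma cell genes summed to 46.29, 48.53 and 207.7 CPM against 1305, 479.3 and 56.27, and gave 1 lower call of 11 (median -2.94), 12 without P5, 2 without C74-MNT and none without any other tumor. Ighm, the heavy chain of IgM, was at 2.25, 1.69 and 12.1 CPM against 495, 200 and 0.948 (log2 -5.42, adjusted p = 0.0562). P5 thus held fewer lymphocyte transcripts than any other of the 6 tumors by the T cell list. Dendritic cell genes gave 3 lower calls of 10 (median -0.97), 7 without P5 and 1 without any other tumor, and neutrophil genes gave 3 higher and 2 lower of 13 (median -0.12), with 1 higher without any 1 of the BURP-24BaSq tumors and 1 lower without C73-M10, C81-M1 or P2. None of 9 MHC class II genes was called (median 0.00), and their sum was 714, 597.6 and 1044 CPM against 1445, 784.8 and 83.83, with 3 called lower without P5.

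Genes of MHC class I and the interferon response leaned higher in BURP-24BaSq: all 30 tested had a positive log2 fold change (median 1.90). Of these, 9 were called, a share close to the 29.0% of all genes. This count rested on single tumors, with 18 called without P5, 16 without C74-MNT, 2 without C73-M10 and 3 or 4 without 1 of the BURP-24BaSq tumors, while DESeq2 called 15. B2m, the light chain of MHC class I, was at 874, 1050 and 1138 CPM in BURP-24BaSq and at 229, 346 and 136 in BURP-16SR (log2 2.11, SE 0.35, adjusted p = 0.00428). H2-K1, a class I heavy chain, was at 747, 617 and 874 CPM against 316, 402 and 59.7 (log2 1.53, adjusted p = 0.0953, and 1.13, adjusted p = 0.0074, without P5). Ifi44, an interferon-induced gene, was at 39, 30.6 and 59.3 CPM against 2.96, 9.73 and 1.49 (log2 3.19, adjusted p = 0.011). P5 was the lowest tumor for each of these genes, and the BURP-24BaSq tumors were above C73-M10 and C74-MNT as well.

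Among 21 immune checkpoint genes, 7 were called lower and 2 higher (median -1.01). Of the lower calls 4 were left without C73-M10, C81-M1 or P2, and there were 11 without P5. Havcr2, which encodes TIM-3, was at 12.1, 5.73 and 9.28 CPM in BURP-24BaSq and at 108, 108 and 226 in BURP-16SR (log2 -4.02, SE 0.43, adjusted p = 0.000763). Pvr, a ligand of the receptors TIGIT and CD226, was at 13.7, 12.1 and 12.1 CPM against 80.5, 70.2 and 100 (log2 -2.73, SE 0.19, adjusted p = 0.000133). Pdcd1lg2, which encodes PD-L2, was lower as well (log2 -2.75). Havcr2 and Pvr were high in P5, where lymphocyte and macrophage transcripts were low. Cd274, which encodes PD-L1, was at 40.8, 30.6 and 45.2 CPM against 34.1, 37.2 and 19.2, with overlapping tumors (log2 0.37, adjusted p = 0.347).

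**Figure D4:**
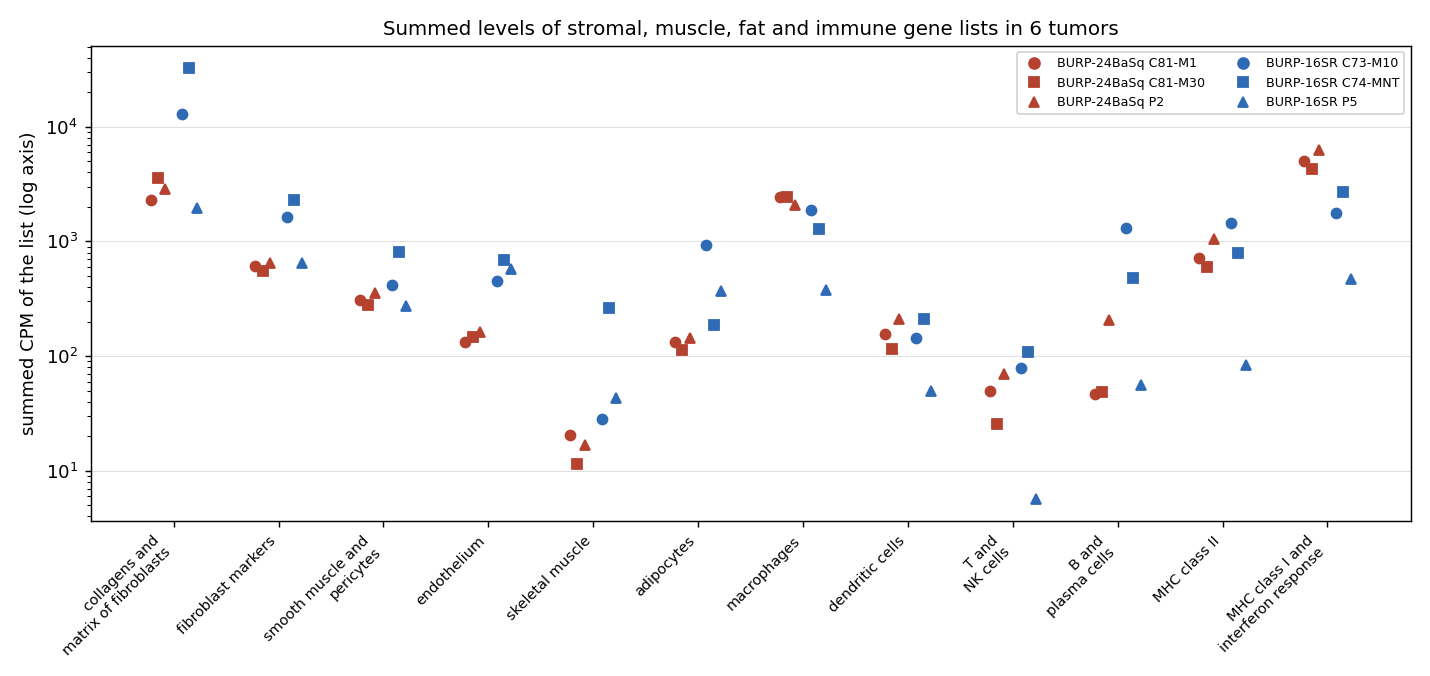
Summed level of 12 cell type and response lists in each tumor, in CPM on a log axis, with BURP-24BaSq tumors in red, BURP-16SR tumors in blue and 1 shape per tumor. Endothelial sums separate the lines (131.7 to 161 CPM against 451.5 to 687.8), whereas in the collagen, T cell, B cell and MHC class II lists the P5 tumor of BURP-16SR lies far below C73-M10 and C74-MNT.

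A comparison of BURP-24BaSq with the other 5 Ba/Sq lines (15 tumors, with 1 term per line in a fit of all 24 tumors) gave the values of BURP-24BaSq against the mean of lines of its own subtype. It called 1157 genes higher (5.41% of 21383 tested) and 524 lower (2.45%), or 7.86% in all. With the 15 tumors as 1 group the counts were 280 and 217. In 1 of the 15, C102-M30 of BURP-25BaSq, 67.1% of the counts were ribosomal RNA, and without it 1270 genes were higher and 523 lower. In both comparisons 689 genes were called higher and 262 lower. The comparisons share the BURP-24BaSq tumors, so that these counts are not independent evidence, and the other Ba/Sq lines have no reported cisplatin response here. Both sexes occur among those other lines, so sex was not matched to the female BURP-24BaSq. Xist was called higher here too (log2 5.10, edgeR adjusted p = 2.08e-07). Its mean was 2672 CPM in BURP-24BaSq and 873.5 and 938.1 in the female BURP-21BaSq and BURP-25BaSq. In the male Ba/Sq lines its mean was between 0.474 and 406.3 CPM. The part of sex in the genes called in both comparisons was not tested. Of the keratins described above, Krt5 (log2 0.30, adjusted p = 0.492) and Krt14 (log2 0.26, adjusted p = 0.561) were not called against the other Ba/Sq lines, while Krt6a was higher in both comparisons (log2 1.51 against Ba/Sq, adjusted p = 0.00709).

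Stag3 (chr5:138280240-138312393), a cohesin subunit of meiotic chromosomes, was among the genes highest in BURP-24BaSq in both comparisons. It was at 67.3, 119 and 79.2 CPM in BURP-24BaSq and at 0.349, 0.316 and 0.406 in BURP-16SR (log2 7.91, SE 0.34, adjusted p = 3.75e-05), and its log2 fold change against the other Ba/Sq lines was 7.63 (SE 0.36, adjusted p = 1.86e-10). The mean was 91.37 CPM in BURP-24BaSq and between 0.143 and 1.325 in the other 7 lines. Slc38a4, an amino acid transporter gene, was higher in both but at 110, 2.46 and 66.5 CPM, so C81-M30 had far less than the other BURP-24BaSq tumors. The galactosyltransferase gene B3galt5 (5.68 against BURP-16SR, 4.95 against Ba/Sq) and Xkr4 (5.33 and 4.51) were also higher in both. Xkr4 was not particular to the line, with means of 11.3 CPM in BURP-24BaSq, 9.03 in BURP-18BaSq and 13.1 in BURP-19NE.

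Of the genes described above, Fgfr3 was higher in BURP-24BaSq than in the other Ba/Sq lines by a log2 of 1.91, Arg1 by 2.52 and Il1a by 2.87, while Lrig1 (-1.43) and Gata3 (-1.54) were lower in both comparisons. The mean of Gata3 was 17.1 CPM in BURP-24BaSq and 16.5 in BURP-21BaSq, so another Ba/Sq line was as low. The mean of Fgfr3 was 91.74 CPM in BURP-24BaSq, the highest of the 8 lines, as were those of Arg1 (1735 CPM, with BURP-17BaSq next at 1042) and Brca2 (61.46 CPM, against 10.56 in BURP-16SR).

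Among genes lower in both comparisons, Slc14a1, the urea transporter of urothelium, was at 1.57, 1.43 and 0.726 CPM in BURP-24BaSq and at 206, 199 and 293 in BURP-16SR (log2 -7.55, SE 0.38, adjusted p = 5.88e-05), with -4.04 (SE 0.74, adjusted p = 0.00109) against the other Ba/Sq lines. Bahcc1, a chromatin gene, was at 1.66, 1.54 and 1.98 CPM against 92.6, 107 and 64.7 (log2 -5.66, and -3.92 against Ba/Sq). Slitrk5, a synaptic adhesion gene, was also lower in both (-7.27 and -6.36).

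**Figure D5:**
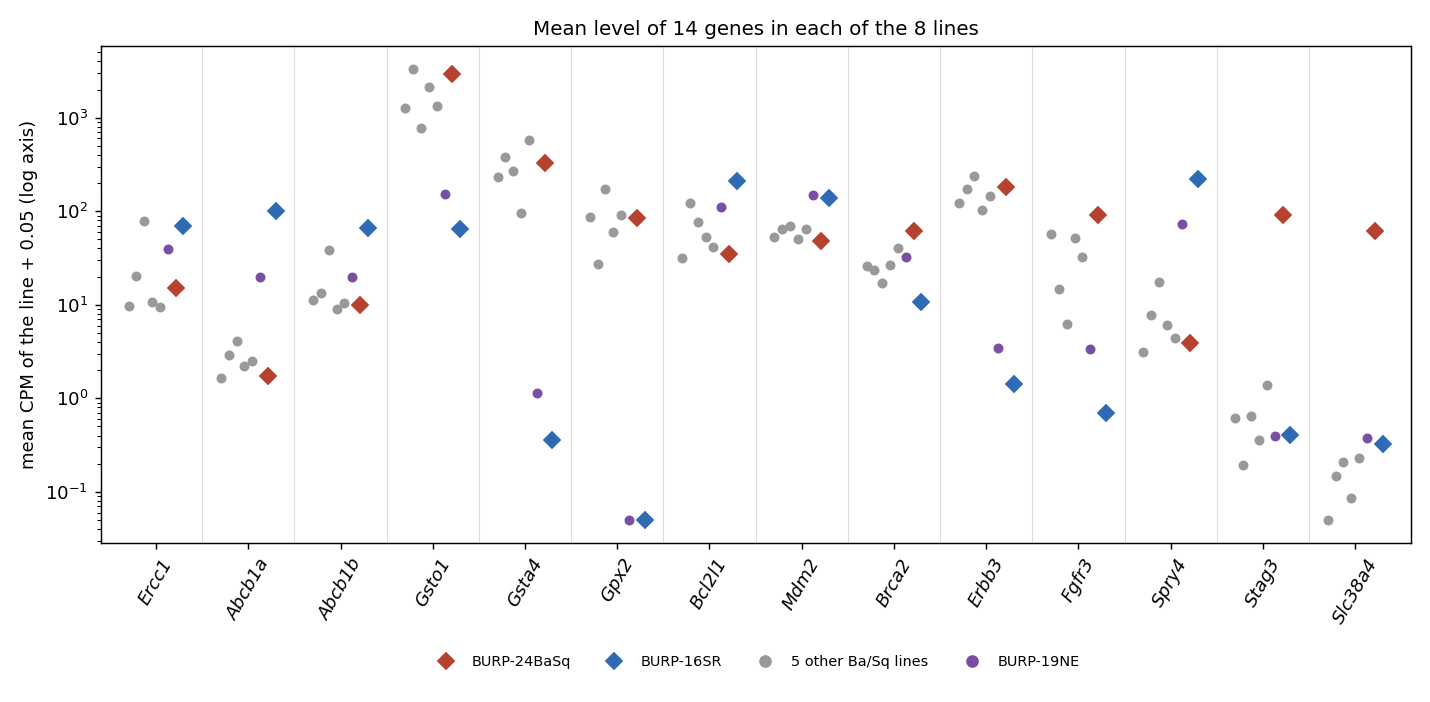
Mean level of 14 genes in each of the 8 lines, as CPM plus 0.05 on a log axis, with BURP-24BaSq as red and BURP-16SR as blue diamonds, the 5 other Ba/Sq lines in grey and BURP-19NE in purple. Stag3 is high in BURP-24BaSq alone, Abcb1a and Spry4 are highest in BURP-16SR, and Ercc1 in BURP-18BaSq (77.96 CPM) lies near BURP-16SR (70.32 CPM).

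The largest decreases in BURP-24BaSq included a cluster of near-identical genes on chromosome 5 (Gm21698, Gm21680, Gm21671, Gm21663 and Speer4a), listed at 0 in BURP-24BaSq and at least 800.7-fold lower for Gm21698, whose separate levels are uncertain since reads are divided between copies. Scn9a, a voltage-gated sodium channel gene, was listed at 0 in BURP-24BaSq and was at 43.3, 35 and 94.4 CPM in BURP-16SR, at least 410-fold lower. Klhl1, a gene of neurons, held 1 count in BURP-24BaSq and was at 130, 103 and 154 CPM in BURP-16SR. All 3 BURP-16SR tumors thus carried these transcripts.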

How the data were processed

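Total RNA depleted of ribosomal RNA was sequenced from subcutaneous tumors. The authors aligned reads to GRCm38 with STAR 2.6.0a and deposited RSEM 1.3.1 expected counts per gene, not normalized, for 53465 genes, of which 32776 had a count in the 6 tumors. Counts were rounded, since 12.5% of values were not whole. Symbols and positions came from GENCODE M21 for 99.8% of identifiers.

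Genes were filtered with filterByExpr, scaled by TMM and tested with glmQLFit and glmQLFTest in edgeR 4.0.16 (limma 3.58.1, DESeq2 1.42.0, R 4.3.3), after a check on simulated counts. Groups followed the sample labels, and sex and subtype the study. Intervals from counts cover counting error only. The 40 gene lists, with 766 of 869 genes tested, and the comparisons were chosen with earlier results of these data known. Named were the largest changes between tumors that did not overlap, and in each list its defining and most changed members. Further list members were named after their values were seen. Promoters came from RefSeq. Alternatives covered DESeq2, limma-voom, size factors, filters, covariates and each tumor left out. Protein sequences were not used, and values for some genes are left out.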

Additional observations from a re-analysis of the deposited data

How the results depend on the processing

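With at least 10 counts required in every tumor, the comparison with BURP-16SR gave 1481 genes higher and 2175 lower, a filter that drops genes near 0 in 1 line. With no fold threshold there were 3223 higher and 3724 lower. The other settings gave between 2374 and 2986 higher and between 2689 and 3156 lower, and leaving out 1 tumor gave 1924 to 3016 higher and 2146 to 3562 lower. The median log2 fold change of all genes ran from -0.109 without a filter to 0.026 without P5. Of 361 called genes of the lists and of the named ones, DESeq2 kept 359, DESeq2's size factors 360 and a fit of all 24 tumors 325, and 269 kept their call whichever tumor was left out, with none reversed. The log2 fold change of Nfe2l2 ran from -0.16 to 0.02, and that of H2-Aa from -0.26 to 1.23, with the sign turned without P5, and neither gene was called. Against the other Ba/Sq lines, at least 10 counts in every tumor gave 291 higher and 215 lower, the 15 tumors as 1 group 280 and 217, and leaving out a BURP-24BaSq tumor 725 to 877 higher and 235 to 384 lower, the lowest of each without C81-M30, and 293 lower without C81-M1. The fit without C102-M30 was added after the data were seen. No paired analysis was possible because the labels carry cage, mouse or passage names and no shared replicate numbers.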

Other observations

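Genes of cell signalling and metabolism outside the comparisons above gave calls in both directions. Of 19 TGF-beta pathway genes, 7 were called lower and 1 higher in BURP-24BaSq (median -0.85). The coreceptor gene Tgfbr3 was lower (log2 -3.98). Bambi, which encodes a decoy receptor, was the gene called higher (log2 3.55). Of 15 Notch pathway genes, 3 were higher and 5 lower (median 0.07), or 3 lower without C81-M30, with the ligand gene Jag2 (log2 2.96) and the receptor gene Notch1 (log2 1.78) among the higher. Notch4, Dll4, Jag1, Hey1 and Mfng were the genes of this list called lower.

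Of 26 hypoxia and glycolysis genes, 5 were called higher and 2 lower (median 0.41), and without P5 10 were higher. In all 6 tumors the share called, 26.9%, was close to the 29.0% of all genes. Ndrg1, a stress-response gene of differentiating epithelium, was at 1043, 946 and 826 CPM against 164, 152.5 and 145 (log2 2.61, SE 0.18, edgeR adjusted p = 0.000133). The carbonic anhydrase gene Car12 was at 97.4, 125 and 130 CPM against 8.28, 16.1 and 16.1 (log2 3.12, SE 0.30, adjusted p = 0.000483). Both separated all tumors of the lines, whereas the lactate dehydrogenase gene Ldha was at 1031, 959 and 836 CPM against 521, 444 and 736 with less than a 2-fold change (log2 0.73, adjusted p = 0.0482). Of 19 aldehyde dehydrogenase genes, 3 were higher and 6 lower (median -0.66), with Aldh1a3, an enzyme of retinoic acid synthesis, at 192, 119 and 127 CPM against 17.2, 7.2 and 24.3 (log2 3.17, SE 0.46, adjusted p = 0.00243). Of 13 neuroendocrine genes, 2 were higher and 5 lower (median -1.78), with 1 higher without C73-M10, C81-M1 or P2 and 4 without C74-MNT. Sox11, a factor of embryonic neurons, was at 114, 143 and 151 CPM against 0.523, 2.53 and 0.406 (log2 6.88), and at a log2 of 3.06 above the other Ba/Sq lines. The neuroendocrine genes called lower were Nrxn3, Scg2, Snap25, Eno2 and Uchl1. Counts of Nrxn3 totalled 3 in BURP-24BaSq and 6292 in BURP-16SR, and those of Snap25 20 and 678. Syp, which encodes synaptophysin, held few counts in both lines (24 and 29 in total).

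Some of the noncoding genes with the largest changes overlapped protein-coding genes that were called in the same direction. Gm36938, which overlaps the desmosome gene Pkp1, was at 42.3, 47.2 and 49.1 CPM in BURP-24BaSq and listed at 0 in BURP-16SR. Gm16136, which overlaps Grhl2 on the opposite strand, was at 46.5, 31.8 and 42.2 CPM and also listed at 0 in BURP-16SR. Whether reads of such pairs were kept apart is not stated.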
